A study of Mus musculus with 9 samples.

Results

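The transcripts described here come from 10 genes that fuse and divide mitochondria. They comprise the fusion GTPases (*Mfn1*, *Mfn2* and *Opa1*), the fission machinery (*Dnm1l*, *Fis1*, *Mff*, *Mief1* and *Mief2*) and the proteases that cut OPA1 (*Oma1* and *Yme1l1*). They were chosen by function and found by gene symbol, 10 of 10, among the 55335 entries listed for each library. The samples were pools of 8-cell mouse embryos, made by in vitro fertilization of oocytes from young superovulated ICR females with sperm of adult ICR males and cultured in KSOM after siRNA had been injected into the zygotes. Nontargeting siRNA was given to the control group. The MFN1-KD embryos were injected with siRNA directed at *Mfn1*, and the H3.3-KD embryos with siRNA directed at *H3f3a* and *H3f3b*, the genes for the histone variant H3.3. Each of the 3 groups has 3 libraries, and each library is 1 pool of embryos, 5 to 10 according to the labels. All 3 groups thus share the injection and the culture, and siRNA lowers a transcript without removing it. The study calls the libraries of a group biological replicates and gives 10 embryos for each group. No source states that the pools came from separate collections of embryos, so p-values measure the spread between these samples, which may be partly technical. Because the pools are bulk RNA, fewer cells with a transcript and less RNA per cell cannot be told apart.

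Mitochondria fuse in 2 steps. The mitofusins MFN1 and MFN2, GTPases anchored in the outer membrane, tether and join neighbouring outer membranes, and OPA1, a dynamin-like GTPase, then joins the inner membranes and shapes the cristae. Division runs the other way: DRP1, the dynamin-like protein made from *Dnm1l*, is drawn from the cytosol to the outer membrane by the receptors MFF, MID49 (*Mief2*) and MID51 (*Mief1*), with FIS1 as a further membrane anchor, and constricts the organelle. The metalloproteases OMA1 and YME1L1 cut long OPA1 into short forms and so set how much fusion-competent OPA1 remains. In oocytes and cleaving embryos mitochondria are mostly small, rounded and poor in cristae, and MFN1 is the mitofusin known to be needed for oocyte growth.

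Levels are FPKM, fragments per kilobase of transcript scaled to the fragments of the library, and can therefore be compared between genes. FPKM carries no read counts, so the depth behind a value is unknown, no counting interval is given, and a 0 is written as listed at 0. In control embryos the 10 genes spanned from 1.59 ± 0.369 FPKM (SD, n = 3) for *Mief2* to 76.3 ± 2.96 FPKM for *Fis1*, which are percentiles 19.6 and 87.7 of the 13011 genes that averaged 1 FPKM or more over the 9 libraries. After *Fis1* came *Yme1l1* at 68.8 ± 7.16, *Mfn1* at 32.6 ± 16.4, *Mff* at 27.0 ± 3.12, *Dnm1l* at 10.8 ± 1.89, *Mief1* at 4.41 ± 1.48, *Mfn2* at 3.80 ± 0.476, *Opa1* at 3.68 ± 1.39 and *Oma1* at 2.25 ± 0.450 FPKM. The libraries of neighbouring genes in this order did not overlap at 3 places, between *Yme1l1* and *Mfn1*, between *Mff* and *Dnm1l*, and between *Dnm1l* and *Mief1*. The other neighbours did not differ beyond their spread. The transcripts of MFN2, of OPA1, of both MiD receptors and of OMA1 were all below 5 FPKM on average.

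The order was not the same in the knockdown groups. In MFN1-KD *Yme1l1* stood first at 89.5 ± 7.85 FPKM and did not overlap *Fis1* behind it at 24.5 ± 20.04, and *Mfn1*, at 5.03 ± 4.23, had moved below *Dnm1l*, which it did not overlap. In H3.3-KD *Mfn1* stood first at 76.6 ± 32.1 FPKM and overlapped *Yme1l1* behind it at 59.4 ± 2.12. There *Mfn2*, at 11.4 ± 0.937, had come level with *Dnm1l* at 11.03 ± 1.163, while it lay below *Dnm1l* in every library of the other two groups.

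**Figure D1:**
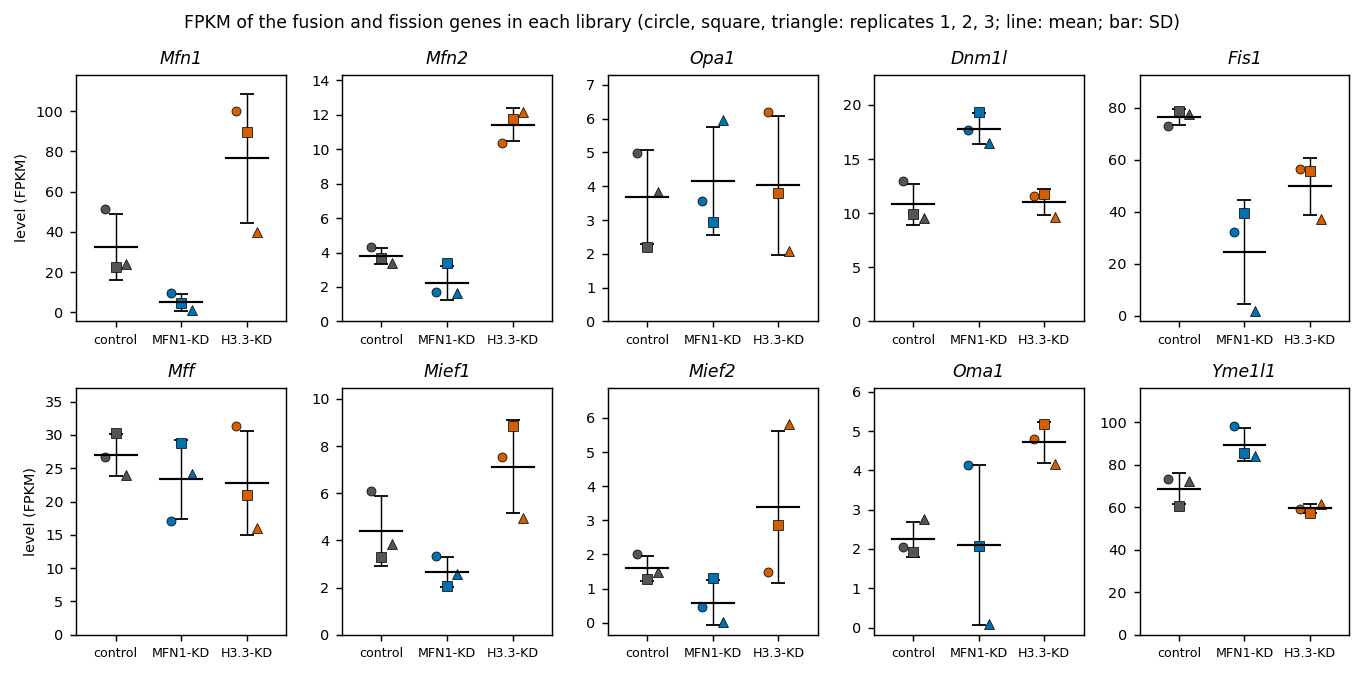
FPKM (vertical axes, linear) of each of the 10 genes in the 3 control, 3 MFN1-KD and 3 H3.3-KD libraries; each marker is 1 library, the line the group mean and the bar the SD. *Mfn1* ranges from 1.15 to 9.54 FPKM in MFN1-KD and from 40.02 to 100.24 in H3.3-KD, and MFN1-KD replicate 3 (blue triangle) is the lowest of all 9 libraries for 5 genes.

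Several features of the libraries bear on these values. The number of genes above 0 FPKM was 21643 to 22507 in control and 23655 to 24820 in H3.3-KD, but 19250, 20842 and 15577 in the 3 MFN1-KD libraries. MFN1-KD replicate 3 stands apart: its 10 most abundant genes took 23.85% of all FPKM, against 8.12% to 16.25% in the other 8 libraries, and it is the lowest library for *Mfn1*, *Mfn2*, *Fis1*, *Mief2* and *Oma1*. The MFN1-KD changes of the members are therefore given with and without it. Of 6 markers of the 8-cell stage, 5 were above 1 FPKM in every control library and *Cdx2* was at most 0.09; their summed level was 103.29 to 157.95 FPKM in control, 156.12 to 168.05 in MFN1-KD and 314.12 to 695.06 in H3.3-KD. These markers did not move as one: *Pou5f1* was 5.1 to 8.9 FPKM in control, 0.3 to 3.68 in MFN1-KD and 63.06 to 392.19 in H3.3-KD, while *Nanog* was 16.41 to 22.91, 17.55 to 23.14 and 8.63 to 21.43. Of 8 cumulus cell markers only *Amhr2* passed 1 FPKM in any library. It was 16.05 to 29.79 in control, 10.16 to 19.32 in MFN1-KD and 38.01 to 66.09 in H3.3-KD, where every library was above the other 6, and *Cyp11a1* and *Inhba* were listed at 0 in all 9. Of 6 oocyte markers 5 or 6 were above 1 FPKM in control, 5 or 6 in MFN1-KD and 3 to 6 in H3.3-KD, with sums of 34.44 to 44.2, 24.37 to 45.91 and 27.5 to 47.7. The part of these shifts in the results was not tested. The second pair of siRNA targets moved as labelled: *H3f3a* was 1593.68 to 2110.3 FPKM in control and 116.98 to 169.71 in H3.3-KD, and *H3f3b* was 2895.28 to 3165.58 and 171.26 to 310.7.

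For the promoters, 300-base windows from 250 bases before to 50 after each RefSeq start (GRCm38.p6) were found for all 10 genes. The ETS core CCGGAAG, searched on both strands, occurs in at least 1 window of 5 of them (*Mfn1*, *Dnm1l*, *Fis1*, *Mief1* and *Yme1l1*), against 9.93% of the 27025 genes with a window. ETS cores near starts are common among genes for mitochondrial proteins. The motif of NRF1, another factor of such genes, occurs in *Opa1* only, against 1.41% of genes. The stretches before the first start of *Mfn1*, *Mfn2* and *Fis1* are shown because *Mfn1* and *Fis1* have the lowest fold changes in MFN1-KD and *Mfn2* the highest in H3.3-KD among the 10. They lie before the annotated gene, at chr3:32529402-32529464 (plus strand), chr4:147904910-147904989 (minus strand) and chr5:136953195-136953274 (plus strand). Capitals mark the ETS core.
Mfn1: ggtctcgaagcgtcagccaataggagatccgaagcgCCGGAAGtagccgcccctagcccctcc
Mfn2: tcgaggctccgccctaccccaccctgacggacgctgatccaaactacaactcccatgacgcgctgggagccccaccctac
Fis1: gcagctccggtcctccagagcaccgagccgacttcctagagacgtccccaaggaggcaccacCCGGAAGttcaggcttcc
These letters are absent from all windows of *Mfn2*, which says nothing of the factors that act there. Of the other genes with the core, *Dnm1l* and *Yme1l1* had log2 fold changes of 0.68 and 0.38 in MFN1-KD against control, and *Mief1* -0.54. *Mfn1* is the siRNA target there, and a link between the core and the changes was not tested.

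Changes were tested on log2(FPKM + 1) with limma over all 13011 genes and all 9 libraries, with Benjamini-Hochberg adjustment, and all fold changes below are on that scale, which understates the change of low genes. A gene was called at an adjusted p under 0.05. All 10 genes passed the filter on low values. The all-gene median was -0.08 for MFN1-KD against control, 0.26 for H3.3-KD against control and -0.39 for MFN1-KD against H3.3-KD. Scaling the libraries by median ratios moved the latter pair to -0.01 and -0.06, so for the members' changes involving H3.3-KD the distance from the all-gene median is printed too.

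The mitofusins came first. *Mfn1* (ENSMUSG00000027668.13, chr3:32529465-32579239, plus strand), the target of the siRNA, was 51.57, 22.55 and 23.77 FPKM in control replicates 1, 2 and 3, and 9.54, 4.40 and 1.15 in MFN1-KD. It was 100.24, 89.52 and 40.02 FPKM in H3.3-KD. The MFN1-KD libraries were all below the other 6, whereas H3.3-KD replicate 3 lay below control replicate 1. MFN1-KD retained 15.4% of the control mean, a log2 fold change of -2.66 (SE 0.58, adjusted p = 0.0431). Without MFN1-KD replicate 3 the value was -2.05 with an adjusted p of 0.0706. *Mfn1* was in the lowest 0.484% of all genes by fold change in this comparison. H3.3-KD had 235% of the control mean, a log2 fold change of 1.21 (SE 0.58, 95% interval -0.09 to 2.498) that did not pass the test (adjusted p = 0.143) and lay 0.94 above the median of all genes.

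*Mfn2* (ENSMUSG00000029020.13, chr4:147873599-147904704, minus strand), the scarcer mitofusin, which also ties mitochondria to the endoplasmic reticulum, was 4.33, 3.66 and 3.41 FPKM in control. It was 1.70, 3.38 and 1.66 in MFN1-KD, all below the control libraries, replicate 2 only just. It was 10.36, 11.76 and 12.14 in H3.3-KD, above every other library. *Mfn2* rose in H3.3-KD to 301% of the control mean, a log2 fold change of 1.37 (SE 0.32, adjusted p = 0.00853), which is 1.11 above the median of all genes and percentile 82.9 of them. The call held under median-ratio scaling (1.08, adjusted p = 0.0163) and upper-quartile scaling (0.91, adjusted p = 0.0356). It was lost when a spline over transcript GC content and length was fitted to each library and subtracted (0.56, adjusted p = 0.146). The GC content of the *Mfn2* transcript is 53.1%, against a median of 48.9% over the genes tested. In MFN1-KD the log2 fold change of *Mfn2* was -0.60 (SE 0.32, 95% interval -1.30 to 0.10, adjusted p = 0.287), and -0.48 without MFN1-KD replicate 3.

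Between the knockdowns both mitofusins differed. *Mfn1* was lower in MFN1-KD than in H3.3-KD by a log2 fold change of -3.86 (SE 0.58, adjusted p = 7.2e-04) and *Mfn2* by -1.97 (SE 0.32, adjusted p = 9.6e-04), with no overlap between libraries for either gene. Relative to the median of all genes these values were -3.47 and -1.58. Both calls held in every alternative run, 18 of 18 for *Mfn1* and 17 of 17 for *Mfn2*, though the value of *Mfn2* was -1.10 (adjusted p = 0.0115) with the trend over GC content and length removed.

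*Opa1* (ENSMUSG00000038084.16, chr16:29579334-29654884, plus strand), whose protein fuses inner membranes, overlapped between all groups, at 2.21 to 4.98 FPKM in control, 2.93 to 5.95 in MFN1-KD and 2.09 to 6.19 in H3.3-KD. Its log2 fold change was 0.14 (SE 0.42, 95% interval -0.78 to 1.06, adjusted p = 0.882) in MFN1-KD, and -0.10 without MFN1-KD replicate 3. It was 0.07 (SE 0.42, 95% interval -0.86 to 0.99, adjusted p = 0.927) in H3.3-KD, which is -0.20 relative to the median of all genes, and its sign turned under both other scalings. Between the knockdowns it lay 0.47 above that median. These intervals leave room for about a 2-fold change either way, so no difference was detectable in *Opa1* with 3 pools a group.

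**Figure D2:**
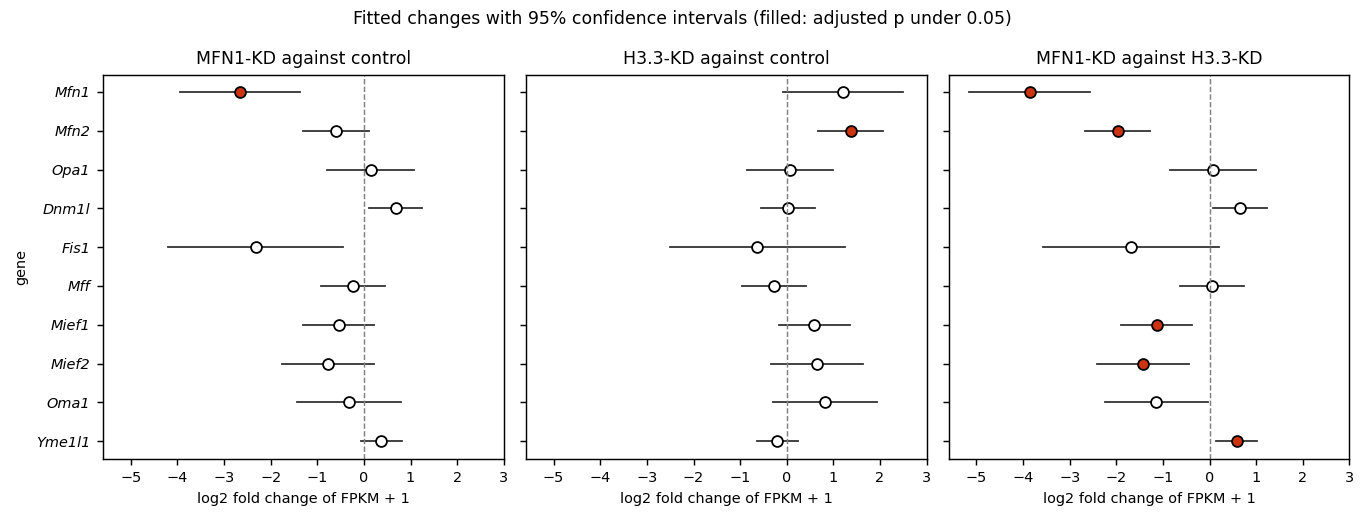
Log2 fold changes (horizontal axes, FPKM + 1) of the 10 genes in the 3 comparisons, with 95% confidence intervals as lines; filled points have an adjusted p under 0.05. Only *Mfn1* is filled in MFN1-KD against control (-2.66), only *Mfn2* in H3.3-KD against control (1.37), and 5 genes are filled in MFN1-KD against H3.3-KD.

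Among the fission genes, *Dnm1l* and *Fis1* were displaced in opposite directions in MFN1-KD, and neither passed the adjusted test. *Dnm1l* (ENSMUSG00000022789.15, chr16:16312230-16358959, minus strand), which encodes the fission GTPase DRP1, was 12.99, 9.93 and 9.55 FPKM in control and 17.69, 19.33 and 16.44 in MFN1-KD. It was 11.63, 11.77 and 9.69 in H3.3-KD. The MFN1-KD libraries were above all 6 others. The log2 fold change of *Dnm1l* against control was 0.68 (SE 0.26, 95% interval 0.10 to 1.26, unadjusted p = 0.0250, adjusted p = 0.155 in limma), and 0.73 without MFN1-KD replicate 3. In H3.3-KD against control it was 0.03 (SE 0.26, adjusted p = 0.944), or -0.23 relative to the median of all genes, and -0.27 or -0.45 under the other scalings. MFN1-KD against H3.3-KD gave 0.65 (SE 0.26, adjusted p = 0.0720), or 1.04 relative to that median, which passed the test under median-ratio scaling (1.01, adjusted p = 0.00752) and upper-quartile scaling (1.19, adjusted p = 0.00505). Those were the only 2 of 18 alternatives in which it passed. With the trend over GC content and length removed it was 0.47 (adjusted p = 0.141). The same run gave 0.45 (adjusted p = 0.277) for *Dnm1l* in MFN1-KD against control. An antisense gene within *Dnm1l*, *Gm49521*, was at most 1.26 FPKM, and since the strand setting is not stated its reads cannot be told from those of *Dnm1l*.

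*Fis1* (ENSMUSG00000019054.13, chr5:136953275-136966234, plus strand), the tail-anchored outer membrane protein, was 72.98, 78.56 and 77.50 FPKM in control, the tightest spread of the 10 genes there (3.88% of the mean). It was 32.34, 39.46 and 1.74 in MFN1-KD. It was 56.33, 55.69 and 37.12 in H3.3-KD. Every knockdown library was below every control library. The log2 fold change in MFN1-KD was -2.32 (SE 0.84, 95% interval -4.20 to -0.44, unadjusted p = 0.0207, adjusted p = 0.142 in limma), in the lowest 0.907% of all genes. Without MFN1-KD replicate 3 it was -1.07, with an adjusted p of 0.0628. In H3.3-KD it was -0.63 (SE 0.84, adjusted p = 0.603), or -0.89 relative to the median of all genes, and without MFN1-KD replicate 3, which enters the shared estimate of spread, the same value had an adjusted p of 0.0488. The *Fis1* transcript, at 948 bases, is the shortest of the 10, and the median of the genes tested is 2571.

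The adaptors that receive DRP1 came next. *Mff* (ENSMUSG00000026150.14, chr1:82724890-82752394, plus strand), the main DRP1 receptor in many cells, overlapped between all groups, at 23.99 to 30.22 FPKM in control, 17.03 to 28.79 in MFN1-KD and 16.06 to 31.41 in H3.3-KD. Its log2 fold changes against control were -0.23 (SE 0.31, adjusted p = 0.703) in MFN1-KD, or -0.27 without MFN1-KD replicate 3, and -0.28 (SE 0.31, adjusted p = 0.530) in H3.3-KD, or -0.54 relative to the median of all genes. *Mief1* (ENSMUSG00000022412.14, chr15:80234018-80253371, plus strand) was 6.10, 3.31 and 3.83 FPKM in control, 3.33, 2.08 and 2.57 in MFN1-KD, and 7.54, 8.87 and 4.97 in H3.3-KD. Its log2 fold change against control was -0.54 in MFN1-KD (-0.53 without MFN1-KD replicate 3) and 0.59 in H3.3-KD (0.33 above the median of all genes). Neither knockdown separated from control, but all H3.3-KD libraries lay above all MFN1-KD libraries. *Mief1* was lower in MFN1-KD than in H3.3-KD by a log2 fold change of -1.13 (SE 0.34, adjusted p = 0.0246), or -0.74 relative to the median of all genes, and the call held in 9 of 17 alternatives. Among those that ended it were median-ratio scaling (-0.80, adjusted p = 0.0818) and leaving out MFN1-KD replicate 2 (-1.02) or H3.3-KD replicates 1 (-1.08) or 2 (-0.98). The call of *Mief1* was also lost with the trend over GC content and length removed, where the value was -0.60. *AC140267.1*, a gene on the same strand that shares 213 bases with *Mief1*, was listed at 1.67 and 4.48 FPKM in H3.3-KD replicates 1 and 3 and at 0 elsewhere, so part of the *Mief1* reads there is uncertain.

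*Mief2* (ENSMUSG00000018599.5, chr11:60728398-60732951, plus strand) was the least abundant of the 10 genes in every group, at 2.00, 1.28 and 1.5 FPKM in control. It was 0.46, 1.30 and 0.02 in MFN1-KD and 1.48, 2.87 and 5.83 in H3.3-KD. Its log2 fold change against control was -0.77 in MFN1-KD (-0.49 without MFN1-KD replicate 3) and 0.65 in H3.3-KD (0.39 above the median of all genes). Both knockdowns overlapped control, and they did not overlap each other. *Mief2* was lower in MFN1-KD than in H3.3-KD by a log2 fold change of -1.42 (SE 0.45, adjusted p = 0.0282), or -1.03 relative to that median. The call held in 9 of 17 alternatives and was lost without MFN1-KD replicates 1 (-1.40) or 3 (-1.14, adjusted p = 0.0708) and without H3.3-KD replicates 2 (-1.45) or 3 (-1.04). With the trend over GC content and length removed the value was 0.04 (adjusted p = 0.951), and *Mief2* has the highest GC content of the 10 transcripts, 57.6%.

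The proteases that cut OPA1 differed widely in level. *Yme1l1* (ENSMUSG00000026775.9, chr2:23156369-23199260, plus strand), the protease that acts constitutively, was 73.48, 60.54 and 72.33 FPKM in control and 98.50, 85.56 and 84.32 in MFN1-KD. It was 59.12, 57.49 and 61.70 in H3.3-KD. The MFN1-KD libraries were the 3 highest. Against control the log2 fold change was 0.38 (SE 0.20, 95% interval -0.07 to 0.82, adjusted p = 0.292) in MFN1-KD, or 0.42 without MFN1-KD replicate 3. In H3.3-KD it was -0.20 (SE 0.20, adjusted p = 0.475), or -0.46 relative to the median of all genes. *Yme1l1* was higher in MFN1-KD than in H3.3-KD by a log2 fold change of 0.58 (SE 0.20, adjusted p = 0.0418), which is 0.97 above that median. That call held in 7 of 18 alternatives, median-ratio (0.97, adjusted p = 0.00610) and upper-quartile scaling (1.158, adjusted p = 0.00441) among them, and the value was 0.01 (adjusted p = 0.980) without the trend over GC content and length. The transcripts of *Mff* (37.3%), *Yme1l1* (38.0%) and *Dnm1l* (40.9%) have the lowest GC contents of the 10. Leaving out control replicates 2 or 3, MFN1-KD replicates 1 or 2, or any H3.3-KD library also ended the call of *Yme1l1*, at 0.51 to 0.61.

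*Oma1* (ENSMUSG00000035069.3, chr4:103313812-103371868, plus strand), the protease activated by stress, was 2.06, 1.92 and 2.76 FPKM in control. It was 4.14, 2.07 and 0.09 in MFN1-KD, the widest spread relative to its mean (96.4%) of any member averaging over 1 FPKM in a group. It was 4.80, 5.17 and 4.16 in H3.3-KD, above all 6 other libraries. The log2 fold change in H3.3-KD against control was 0.82 (SE 0.50, 95% interval -0.29 to 1.93, adjusted p = 0.241), and 0.56 relative to the median of all genes. Without MFN1-KD replicate 3 its adjusted p was 0.0535, and it passed the test with only the 6 libraries compared (adjusted p = 0.0391) and with library weights (0.93, adjusted p = 0.0170). Those were the only 2 of 17 alternatives in which it passed. The value was 0.55 (adjusted p = 0.450) under median-ratio scaling and 0.41 (adjusted p = 0.587) under upper-quartile scaling. With the trend over GC content and length removed it was 0.47 (adjusted p = 0.471). In MFN1-KD it was -0.32 (SE 0.50, adjusted p = 0.744) with all libraries and 0.30 without MFN1-KD replicate 3. Between the knockdowns the value was -1.14 (SE 0.50, adjusted p = 0.0949), or -0.75 relative to the median of all genes, and -0.52 without that library.

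Counted over the 10 genes in MFN1-KD against control, 0 were called higher and 1, *Mfn1*, was called lower, where 1.15% and 2.20% of all genes were. The study called genes in DESeq2 at more than 2-fold and p under 0.05. Applied here to the limma fit, with an unadjusted p, the same cutoffs need not give the study's calls. By them 0 were higher and 2 lower (*Mfn1* and *Fis1*), against 5.02% and 9.05% of all genes. MFN1-KD libraries lay above all control libraries for 2 genes (*Dnm1l* and *Yme1l1*) and below them for 3 (*Mfn1*, *Mfn2* and *Fis1*), against 11.4% and 16.8% of all genes. The median log2 fold change of the 10 was -0.43, and 3 of them (*Opa1*, *Dnm1l* and *Yme1l1*) were above the median of all genes. The call of *Mfn1* held in 8 of 18 alternatives, with adjusted p from 0.0244 to 0.158. It was lost without any 1 of the control libraries (-2.28 to -2.86), without MFN1-KD replicates 2 (-2.72) or 3 (-2.05), and without H3.3-KD replicates 1 or 2, which leave the value at -2.66.

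In H3.3-KD against control 1 gene, *Mfn2*, was called higher and 0 were called lower, where 21.8% and 9.12% of all genes were. Of all genes called, 2841 were higher and 1187 lower, and under median-ratio scaling 2076 and 1752. By fold and unadjusted p the counts were again 1 higher and 0 lower, against 23.9% and 9.39% of all genes. H3.3-KD libraries lay above all control libraries for 2 genes (*Mfn2* and *Oma1*) and below them for 1 (*Fis1*), against 34.5% and 18.9%. The members' median was 0.33, and 0.06 under median-ratio scaling, and 5 of 10 were above the median of all genes. The number of members called ran from 0 with the trend over GC content and length removed to 4 with library weights.

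In MFN1-KD against H3.3-KD 1 gene was called higher (*Yme1l1*) and 4 lower (*Mfn1*, *Mfn2*, *Mief1* and *Mief2*), where 11.0% and 27.6% of all genes were. The libraries did not overlap for 2 higher genes (*Dnm1l* and *Yme1l1*) and 5 lower genes (the 4 called and *Oma1*), against 14.8% and 33.1%. The median of the 10 was -1.14. Under upper-quartile scaling 2 members were called higher and 2 lower, and the split of all genes called turned from 1437 higher and 3591 lower to 2468 and 2189. Leaving out H3.3-KD replicate 1, 2 or 3 left 3, 2 and 3 members called.

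Shares within pairs of genes do not depend on how a library is scaled, but they were not adjusted for GC content or transcript length. The *Mfn1* share of the mitofusin transcripts (*Mfn1* plus *Mfn2*) was 92.3%, 86.0% and 87.5% in control. It was 84.9%, 56.6% and 40.9% in MFN1-KD, below the control range in all 3 libraries. The difference of the means was -27.8 percentage points (60.8 ± 22.3 against 88.6 ± 3.26, SD, n = 3; two-sided exact permutation p = 0.1, the smallest that 3 against 3 can give). So *Mfn1* remained the larger mitofusin transcript in 2 of 3 MFN1-KD libraries, the exception being replicate 3. Without that replicate the MFN1-KD mean was 70.7%. In H3.3-KD the share was 90.6%, 88.4% and 76.7%, a mean of 85.2 ± 7.47 (n = 3, exact permutation p = 0.7), in libraries where both mitofusins had higher means than in control.

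*Oma1* made up 2.73%, 3.07% and 3.68% of the FPKM of the OPA1 proteases (*Oma1* plus *Yme1l1*) in control. In H3.3-KD it made up 7.51%, 8.25% and 6.32%, more than in any other library. The difference between the means was 4.20 percentage points (7.36 ± 0.976 against 3.16 ± 0.480, n = 3, exact permutation p = 0.1). The *Oma1* transcript has a GC content of 48.5% and 1915 bases, the *Yme1l1* transcript 38.0% and 4707. The part of this difference between the transcripts in the share was not tested. MFN1-KD, at 4.03%, 2.36% and 0.107%, overlapped control (exact permutation p = 0.5 with n = 3) and not H3.3-KD (p = 0.1 in the exact test). For the MiD receptors the *Mief1* share of *Mief1* plus *Mief2* averaged 73.1 ± 1.92% in control, 82.9 ± 19.3% for MFN1-KD and 68.4 ± 19.8% for H3.3-KD, with overlap in each of the 3 comparisons (exact permutation p = 0.4 and 1.0 against control and 0.4 between the knockdowns, n = 3). Without MFN1-KD replicate 3 the MFN1-KD means were 3.20% for *Oma1* and 74.7% for *Mief1*. The 9 tests of shares form 1 family, in which the smallest Benjamini-Hochberg adjusted value is 0.3, and none can pass the threshold in this design.

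**Figure D3:**
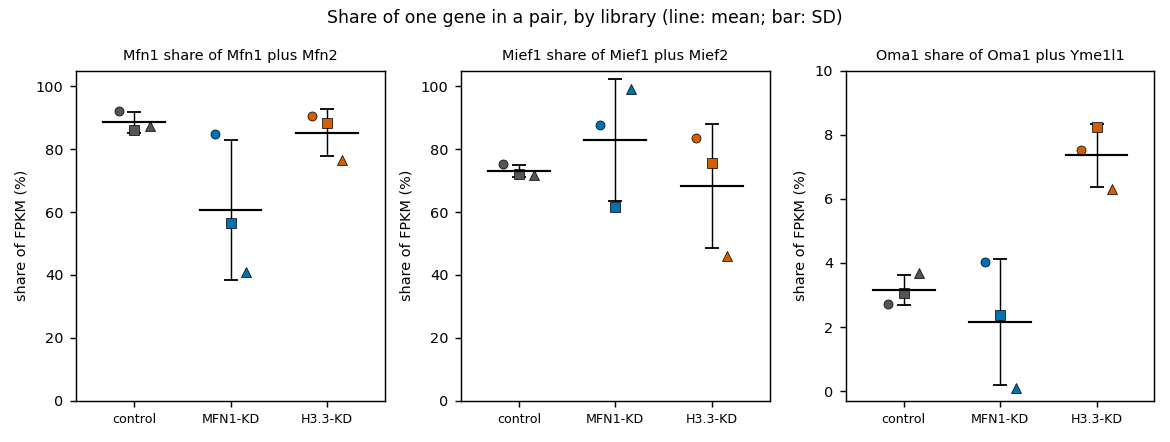
Share of FPKM (vertical axes, percent) taken by *Mfn1*, *Mief1* and *Oma1* within their pairs; each marker is 1 library (circle, square and triangle for replicates 1, 2 and 3), the line the mean and the bar the SD, and the third panel has its own scale. The MFN1-KD libraries sit at 40.9% to 84.9% in the first panel, below the control libraries, and the H3.3-KD libraries at 6.32% to 8.25% in the third, above all others.

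To see whether the members stood alone, 41 other genes of mitochondrial shape and transport were read from the same fit, of which 38 passed the filter. They comprise the MICOS complex, which builds cristae junctions, with its partners in the outer membrane, inner membrane proteases and scaffolds, regulators of fission and of fusion, and the adaptors that tie mitochondria to motors. In MFN1-KD against control 0 were called higher and 1 lower, against 1.15% and 2.20% of all genes. The gene called was *Mtx1*, part of the outer membrane import machinery, which fell by 1.57 on the log2 scale (SE 0.28, adjusted p = 0.0333). *Mtx1* was 73.36, 104.37 and 96.92 FPKM in control and 30.06, 41.21 and 21.56 in MFN1-KD, without overlap. Its call held in 10 of 18 alternatives and was lost without any 1 control library or without H3.3-KD replicates 1 or 2. By fold and unadjusted p 0 of the 38 genes were higher and 5 lower, against 5.02% and 9.05% of all genes. Libraries did not overlap for 2 higher and 10 lower genes, against 11.4% and 16.8%, and the median was -0.35.

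In H3.3-KD against control 14 of the 38 genes were called higher and 4 lower, against 21.8% and 9.12% of all genes, with a median of 0.54. Under median-ratio scaling 7 were higher and 6 lower, and under upper-quartile scaling 5 and 6. With the trend over GC content and length removed 2 were higher and 3 lower. That run leaves out *Minos1*, *2410015M20Rik* and *March5*, whose listed symbols have no GC value. In the main fit *March5* was called higher and the others lower, so part of the drop is genes not tested. Higher calls outnumbered lower ones only in the first of these 3 settings. Without control replicate 2, control replicate 3 or H3.3-KD replicate 2 the number called was 11, 9 and 11. Of the fission regulators 6 of 13 were called higher and 0 lower, and of the inner membrane proteases and scaffolds 4 of 7 and 0. *Mul1*, an outer membrane E3 ligase, was 8.84, 11.19 and 9.02 FPKM in control and 34.37, 44.19 and 30.05 in H3.3-KD (log2 fold change 1.79, SE 0.30, adjusted p = 0.00168). *Dnm2*, another dynamin GTPase, was 5.75, 3.39 and 3.27 in control and 25.76, 24.29 and 24.74 in H3.3-KD (2.37, SE 0.41, adjusted p = 0.00210). *Akap1*, which anchors protein kinase A on the outer membrane, had a log2 fold change of 1.75 (SE 0.32, adjusted p = 0.00272). With the trend over GC content and length removed, the values were 0.70 for *Mul1*, which lost its call, 1.163 for *Dnm2* and 0.88 for *Akap1*. *Dnm2* and *Akap1*, both fission regulators, were the 2 genes of the list called higher in that run. No inner membrane protease or scaffold kept its call there.

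The genes called lower in H3.3-KD were all of the MICOS and cristae class, 4 of 12, against 9.12% of all genes. In that class 2 (*Samm50* and *Letm1*, named after their values were seen, as is *Mtx2*) were called higher, against 21.8%. *Minos1*, the MICOS subunit Mic10, was 572.42, 643.24 and 726.14 FPKM in control and 252.8, 201.72 and 216.61 in H3.3-KD, and fell by 1.53 (log2, SE 0.22, adjusted p = 7.1e-04). *Apool*, another subunit, fell by 1.93 (SE 0.45, adjusted p = 0.00934). *2410015M20Rik*, now *Micos13*, fell by 1.53 (SE 0.44, adjusted p = 0.0236), a call held in 12 of 17 alternatives and lost without any 1 control library or without H3.3-KD replicate 3. The fourth was the outer membrane protein gene *Mtx2* (-0.89, SE 0.30, adjusted p = 0.0423). Between the knockdowns 2 genes were called higher in MFN1-KD, *Minos1* by 1.82 and *Apool* by 1.42, and 14 lower, those with the smallest p being *Mul1* (-2.59), *Dnm2* (-2.95) and *Akap1* (-2.25), against 11.0% and 27.6% of all genes, and under upper-quartile scaling 4 and 10. For *Apool* that call was lost without MFN1-KD replicates 1 or 3 or H3.3-KD replicate 3. Both comparisons with control share the control libraries, so their values are set side by side only.

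**Figure D4:**
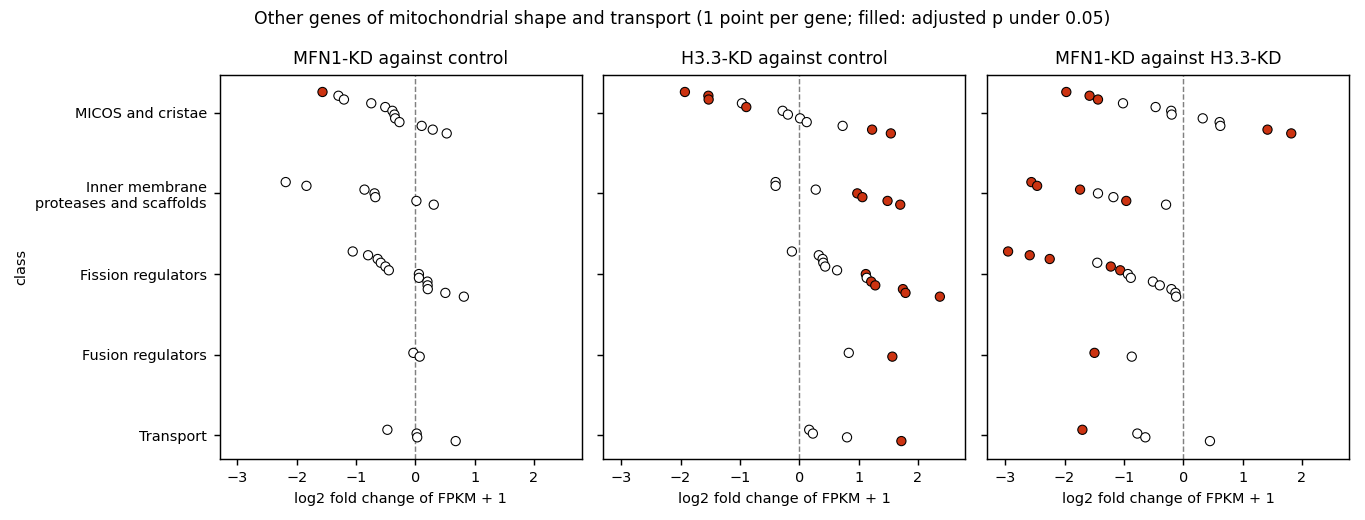
Log2 fold changes (horizontal axes, FPKM + 1) of the 38 other genes of mitochondrial shape and transport, by class, in the 3 comparisons; each point is 1 gene and filled points have an adjusted p under 0.05. In H3.3-KD against control the filled fission regulators, 6 of 13, all lie above 0, and the 4 filled genes below 0 are of the MICOS and cristae class. Of all genes tested, 21.8% were called higher and 9.12% lower in that comparison. With the trend over GC content and length removed, only *Dnm2* and *Akap1* of these genes were called higher in it.

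Finally, the genes whose log2(FPKM + 1), centred on the gene's own mean, lay nearest to that of *Mfn1* over the 9 libraries were *Gm4366* (root mean square difference 0.43), *Mpdu1* (0.51), *Gm15459* (0.54), *Rab11b* (0.56) and *Ciapin1* (0.58). *Mpdu1*, which uses dolichol-linked sugars, was 51.41, 42.01 and 34.6 FPKM in control, 11.46, 13.4 and 1.71 in MFN1-KD and 87.93, 86.56 and 80.92 in H3.3-KD. *Rab11b*, a GTPase of recycling endosomes, was 22.77, 21.88 and 22.92 in control, 11.78, 8.19 and 1.38 in MFN1-KD and 60.45, 60.26 and 51.69 in H3.3-KD. None of the other 9 fusion and fission genes was among these 5.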

How the data were processed

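In all, 9 libraries (3 control, 3 MFN1-KD and 3 H3.3-KD) were analysed. The authors made Smart-Seq2 libraries, used cutadapt 1.16 and STAR (genome mm10) on the reads, and deposited FPKM values with 2 decimals. The program behind the FPKM values, the gene annotation and the strand setting are not given in the sources used here, and read depth is unknown. Positions, GC content and lengths come from GENCODE M21 (GRCm38).

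Log2(FPKM + 1) of the 13011 genes averaging 1 FPKM or more was fitted in limma 3.58.1 (R 4.3.3; trend and robust options, no covariate), a procedure tested on simulated data. A gene was called when its Benjamini-Hochberg adjusted p was under 0.05. The second rule asked for an unadjusted p under 0.05 and over 2-fold change. Shares were tested by two-sided exact permutation (scipy 1.17.1). The members and lists were chosen with earlier results of these data known. All 10 members are named, with *H3f3a* and *H3f3b*, up to 3 called genes of the wider list per comparison and direction by smallest p, and the 5 genes most like *Mfn1*. *March5* was read from an entry turned into a date, and *Minos1* and *2410015M20Rik* are the older symbols of *Micos10* and *Micos13*. Alternatives were scaling by median ratios or upper quartiles, all genes above 0, a minimum mean of 10 FPKM, 0.1 as pseudocount, the replicate number as a block, library weights, subtraction of a spline over GC content and length (5 degrees of freedom), only the 6 libraries compared, and each library left out in turn. Protein sequences and the siRNA sequences were not used here.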

Additional observations from a re-analysis of the deposited data

Results flagged for a closer look

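For 5 of the 10 genes the effects of the knockdowns differed, tested directly as MFN1-KD against H3.3-KD in limma (adjusted p under 0.05). In this comparison 11.0% of all genes were called higher and 27.6% lower. The log2 fold changes were -3.86 for *Mfn1*, -1.97 for *Mfn2*, -1.13 for *Mief1*, -1.42 for *Mief2* and 0.58 for *Yme1l1*. The MFN1-KD and H3.3-KD libraries, 3 against 3, did not overlap for any of these 5 genes. The calls held in every alternative run for *Mfn1* and *Mfn2*, in 9 of 17 each for *Mief1* and *Mief2*, and in 7 of 18 for *Yme1l1*. The largest, for *Mfn1*, is in the siRNA target itself. No test for single outlying libraries was run in groups of 3, though MFN1-KD replicate 3 stands apart and each library was left out in turn.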

How the results depend on the processing

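In MFN1-KD against control 436 genes were called. The count was 2 without a filter, 657 at a mean of at least 10 FPKM, 31 with the replicate block, 1393 with library weights and 3 with only the 6 libraries compared, and ran from 0 (without control replicate 2 or 3, where limma gave 2002 and 1979 genes at an unadjusted p under 0.05) to 661 when a library was left out. The 1 member called became 0 without a filter, with a pseudocount of 0.1 and with only 6 libraries (0 to 1 over left-out libraries). The 1 gene of the wider list called became 2 with either scaling or the higher minimum, 3 with weights, and 0 without a filter, with the replicate block and with 6 libraries (0 to 3). In H3.3-KD against control the 4028 genes became 2590 at the higher minimum and 6980 with weights (2439 to 5103 over left-out libraries). The 1 member became 2 with upper-quartile scaling, the block or 6 libraries, 4 with weights, and 0 at the higher minimum or with the GC and length trend removed (1 to 2), and the 18 genes of the wider list became 11, 10, 9 and 5 with upper-quartile scaling, no filter, the higher minimum and the trend removed (9 to 20). In MFN1-KD against H3.3-KD the 5028 genes became 2980 at the higher minimum (3793 to 5131), the 5 members 2 without a filter, at the higher minimum, with the trend removed and with 6 libraries (2 to 5), and the 16 genes of the wider list 8 at the higher minimum and 7 with the trend removed (11 to 19). Only 5 members pass the higher minimum, so fewer could be called there. *Minos1*, *2410015M20Rik* and *March5* of the wider list are not in the run with the trend removed and could not be called in it. The cause of the other shifts was not tested. A pseudocount of 1 FPKM moved the *Mief1* share to 67.2% in control and 69.9% in MFN1-KD, and the *Oma1* share to 4.45% in control and 8.65% in H3.3-KD.

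Of 525 recomputed fold changes of members, 448 kept direction and side of the threshold, 37 lost and 11 gained the call, and 29 turned sign. With the trend removed the turned values were, against control in MFN1-KD, *Opa1* -0.10, *Oma1* 0.022 and *Yme1l1* -0.058, in H3.3-KD *Opa1* -0.0043, *Dnm1l* -0.021 and *Mief2* -0.53, and between the knockdowns *Opa1* -0.10, *Mff* -0.49 and *Mief2* 0.040. Median-ratio and upper-quartile scaling turned *Opa1* (-0.19 and -0.33) and *Dnm1l* (-0.27 and -0.45) in H3.3-KD. Library weights turned *Oma1* in MFN1-KD (0.24) and *Opa1* (-0.17) and *Mff* (-0.12) between the knockdowns. Over left-out libraries the values that turned ran, in MFN1-KD, from -0.11 to 0.34 (*Opa1*) and -0.82 to 0.30 (*Oma1*), in H3.3-KD from -0.24 to 0.37 (*Opa1*) and -0.044 to 0.16 (*Dnm1l*), and between the knockdowns from -0.23 to 0.38 (*Opa1*) and -0.16 to 0.30 (*Mff*).

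Deviations of same-numbered libraries correlated at 0.01 to 0.16 for control and MFN1-KD, where different numbers gave -0.09 to 0.06. For control and H3.3-KD the ranges were -0.05 to 0.02 and -0.05 to 0.07. For both knockdowns they were 0.05 to 0.14 and -0.12 to 0.07. The same-numbered values were thus all low. They reached higher than the others for control and MFN1-KD and for both knockdowns, with overlapping ranges, and not for control and H3.3-KD. Whether the numbers pair the samples was not tested. With the replicate number as a block, *Mfn1* passed the test in H3.3-KD (1.21) and *Yme1l1* no longer did between the knockdowns (0.58). FPKM without counts, pools of few embryos and 3 libraries a group limit the precision.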

Other observations

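Of the 41 other genes of mitochondrial shape and transport, 3 stayed under a mean of 1 FPKM and were not tested. *Pld6*, a phospholipase of the outer membrane, was 0.02, 0.13 and 0.0 FPKM in control, 0.08, 0.17 and 0.1 in MFN1-KD and 2.28, 1.55 and 3.86 in H3.3-KD, where every library was above the other 6. *Mtfp1*, an inner membrane fission factor, was 0.19 to 0.66 FPKM in control, 0.0 to 0.63 in MFN1-KD and 0.28 to 0.76 in H3.3-KD. *Inf2*, a formin, was 0.36 to 0.73 in control, 0.56 to 1.3 in MFN1-KD and 0.76 to 1.67 in H3.3-KD. Near-identical copies of 2 members, *Gm13719* of *Dnm1l* (91.2% over 1347 bases) and *Gm14897* of *Yme1l1* (96.1% over 207 bases), were listed at 0 in all 9 libraries.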
